A study of Emberiza melanocephala with 4 samples.

Results

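The comparison set the RNA-seq library labelled with the testicular state refractory against the library labelled sensitive, across genes of the black-headed bunting (Emberiza melanocephala). Its members were the genes that reached 25 FPKM or more in at least 1 of these 2 libraries, where FPKM is a read density scaled to exon length and to the fragments sequenced. There were 888 such genes among 2239 with a value in any of the 4 files of the series, and 721 of the 888 carried a gene symbol. The refractory library and the sensitive library were both made from RNA labelled as testis, from birds described as caught from the wild. The remaining libraries of the series were labelled early stimulated and late stimulated and had the same tissue label. Each state had 1 library, and the number of birds behind a library is not given in the labels. The values therefore describe these libraries, and no difference carries a replicate error or a p-value.

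The black-headed bunting is a migratory songbird whose gonads grow and regress with the seasons. In photoperiodic birds, the sensitive state is generally the one in which long days can start gonadal growth. In the refractory state, long days no longer sustain that growth and the gonads regress. The testis is usually recognised by germ cells, by Sertoli cells that nurse them and by Leydig cells that make androgens. Rods and cones of the retina are recognised by the phototransduction cascade, in which light-activated opsin acts through transducin on a phosphodiesterase that breaks down cyclic GMP.

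The label testis could be checked only through genes that carried a name in these files. Of 26 genes of steroid synthesis and hormone reception, 3 had a value and 1 reached 25 FPKM. Of 90 germ-cell genes, 5 had a value and 2 reached 25 FPKM, and of 16 Sertoli and peritubular genes 1 had a value and 0 reached that level. No value was had for the other genes of these lists, which shows nothing about their expression, since transcripts matching no reference gene carried most of the signal. Retinal and neuronal genes were abundant in the refractory library and in both stimulated libraries, as given below. The named genes thus do not bear out the label testis for these 3 libraries, and its correctness remains in doubt. In the sensitive library most of those retinal and neuronal genes were at 0 or low. Few testis genes had a value there, so the named genes do not settle its label either. Each library is called by its label.

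The refractory library rested on 318.1 Mb of aligned bases and the sensitive library on 120.5 Mb. Transcripts matching a reference gene held 8.16% of the listed TPM in refractory and 9.25% in sensitive. Transcripts without such a match had a lowest listed coverage of about 2.5, which equals 7.86 FPKM in the refractory library and 20.8 FPKM in the sensitive library. These values are called the listing floors. A gene listed at 0 may lie under the floor of its library, or its transcript may not have been assembled there, so a 0 sets no limit on its level. Genes that every cell uses were among them: RPL27A and ND2 were listed at 0 in refractory, COX17 in sensitive and RPL35 in both. The level of a gene below is its exon coverage, summed over every transcript listed there and expressed as FPKM. For 198 members covered in refractory and 287 covered in sensitive, no transcript carried the gene's own name. Their levels there rest on transcripts without that name. In refractory these included GAD1, GAD2, CHRNB3, GNB3, TAGLN3 and FABP5. A gene counted as higher or lower in refractory once log2(FPKM + 1) differed by 1 or more, with a gene listed at 0 set to the floor of its library. For low genes this scale gives too small a change.

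By this rule 222 of the 888 genes, or 25%, were higher in the refractory library and 205, or 23.1%, were lower. The other 461 lay within 1, and the list counts below are to be set against these shares. The median difference over all members was 0.06, with quartiles at -0.92 and 1.0. Among the genes listed at 0 in the sensitive library, 63 were high enough over its floor to be counted as higher, and 39 were too close to it for a call. All 25 genes listed at 0 in the refractory library were counted as lower. The entry level of 25 FPKM in sensitive and the refractory floor of 7.86 FPKM fixed that outcome beforehand. A gene listed at 0 in sensitive entered through its refractory level, so it could not be counted as lower. The 63 and 25 calls rest on the floor taken in place of the 0. Coverage in both libraries was found for 761 genes, of which 159 were higher in refractory and 180 lower. Of these calls, 34 rested on a refractory value under the floor and 84 on a sensitive value under the floor. With every value under a floor raised to it, 195 genes were higher and 205 lower in refractory.

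**Figure D1:**
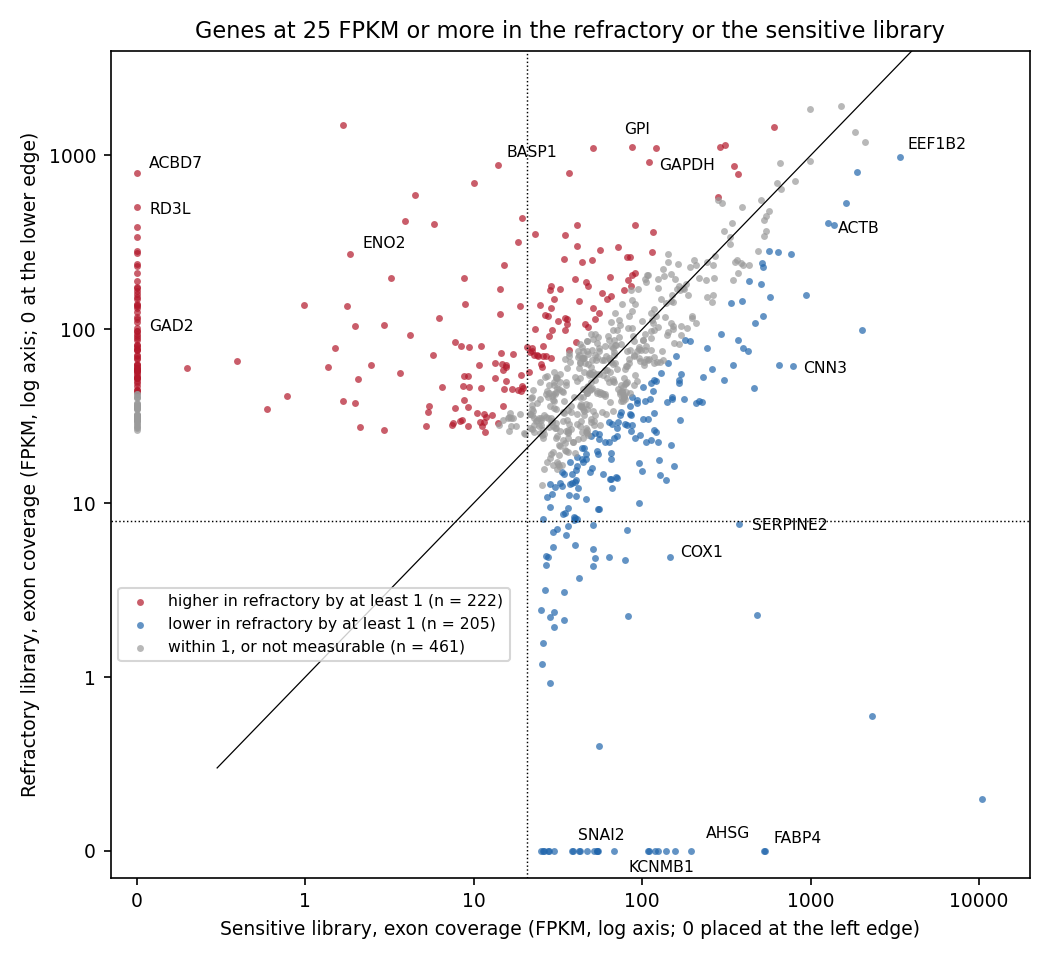
Exon coverage of the 888 genes in the refractory library (vertical axis, FPKM, log scale) and in the sensitive library (horizontal axis, FPKM, log scale), with 1 point per gene. Dotted lines mark the listing floors of 7.86 FPKM (refractory) and 20.8 FPKM (sensitive), the diagonal marks equal levels, genes listed at 0 sit at the edges, and values between 0 and 0.2 FPKM are drawn at 0.2. The column at the left edge holds 102 genes listed at 0 in sensitive, and the row at the lower edge 25 genes listed at 0 in refractory.

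Genes lying at the entry level show how close that limit cuts. UGDH at 4.35 FPKM in refractory and 24.99 FPKM in sensitive, PROS1 at 8.76 and 24.97 FPKM and CNIH4 at 18.9 and 24.9 FPKM lay just under it. Just over it lay HADH, an enzyme of fatty-acid oxidation, at 2.42 FPKM in refractory and 25.04 FPKM in sensitive. CCDC80, listed at 0 in refractory and at 25.2 FPKM in sensitive, was also just over it. The refractory values of UGDH and HADH lay under the refractory floor of 7.86 FPKM.

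Phototransduction genes were mostly higher in the refractory library. Of 46 genes on this list 14 had a value and 12 were members. Among these members 11 were higher in refractory and 0 lower, against 25% and 23.1% over all members. Of the 12, 7 were listed at 0 in sensitive and so could not be counted as lower. The median difference of the 12 members was 2.73, against 0.06 over all members. The summed level of the list was 3343 FPKM in the refractory library and 500.1 FPKM in the sensitive library. PDC, the phosducin that binds transducin subunits, stood at 237 FPKM in refractory and was listed at 0 in sensitive. Its 3 exons lie between 7908299 and 7912924 of scaffold JH603197.1 (FicAlb_1.4, minus strand). PDE6H, the inhibitory subunit of the cone phosphodiesterase, stood at 210 FPKM in refractory and at 0 in sensitive. GNAT2, the alpha subunit of cone transducin, reached 149.8 FPKM in refractory, and its beta subunit partner in cones, GNB3, reached 98.4 FPKM, both listed at 0 in sensitive. All 4 levels in refractory lay above the sensitive floor.

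The regulators of the cascade followed the same pattern. GUCA1C and GUCA1A, which activate guanylate cyclase when calcium is low, stood at 188 and 76.1 FPKM in refractory and were both listed at 0 in sensitive. RD3L, a relative of a guanylate cyclase inhibitor of photoreceptors, was at 503 FPKM in refractory and at 0 in sensitive. Some genes of the list were covered in both libraries. GRK7, the cone opsin kinase, was at 46.3 FPKM in refractory against 6.46 FPKM in sensitive, and RGS9BP, the anchor of the protein that shuts transducin off, at 53.8 against 9.28 FPKM. Both sensitive values lay under the sensitive floor of 20.8 FPKM. GNB1, the beta subunit of rod transducin and of G proteins in many tissues, was at 871 against 349.9 FPKM, a difference of 1.31. PDE6D, a carrier of lipid-anchored proteins found in many tissues, was at 195 against 124 FPKM and stayed within 1. GNB1 and PDE6D together made up most of the sensitive sum of this list. What share retinal or neuronal cells had in any difference between the libraries was not tested.

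Other retinal genes were too low for a call. RLBP1, the retinoid carrier of the visual cycle, was at 29.6 FPKM in refractory and at 0 in sensitive, less than 1 over the sensitive floor on the log2 scale. KCNV2, a photoreceptor potassium channel subunit, was at 21.2 FPKM and RBP3, the retinoid carrier between photoreceptors and pigment epithelium, at 19.4 FPKM in refractory, each at 0 in sensitive and under 25 FPKM in both. PDE6G, the rod counterpart of PDE6H, and NXNL2, a photoreceptor survival factor, were listed at 0 in both libraries.

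Genes of neurons were higher in the refractory library as well. On the list of transmitter enzymes, transporters and receptors, 10 of 11 members were higher and 0 lower, against 25% and 23.1% over all members. Of the 11, 9 were listed at 0 in sensitive. Those 9 entered through their refractory level and could not be counted as lower. The list summed to 1036 FPKM in refractory and 29.3 FPKM in sensitive. GAD1 and GAD2, which make the inhibitory transmitter GABA, stood at 91.1 and 109.9 FPKM in refractory, both at 0 in sensitive. ABAT, the enzyme that breaks GABA down, was covered in both libraries, at 99.4 FPKM in refractory against 29.3 FPKM in sensitive, a difference of 1.73. Of these enzymes ABAT alone compares covered levels, and no sensitive transcript carried its name. The direction for GAD1 and GAD2 was limited by their 0 in sensitive.

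Receptor subunits for several transmitters lay on the same side. CHRNB3, a nicotinic acetylcholine receptor subunit, stood at 160.0 FPKM and GLRA2, a glycine receptor subunit, at 76.1 FPKM in refractory, both at 0 in sensitive. GRIA4, a glutamate receptor subunit, was at 59.5 FPKM in refractory against 0.00405 FPKM in sensitive, where 0.385% of its exon bases were covered. GABRA2, a GABA receptor subunit, at 40.8 FPKM in refractory lay too close over the sensitive floor for a call. SLC1A3, the glutamate transporter of astrocytes and Müller glia, was at 78.6 FPKM in refractory and at 0 in sensitive.

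Synaptic and granule genes included the endophilin SH3GL2, which shapes vesicles during recycling, at 283 FPKM in refractory and 0 in sensitive. SPOCK3, a proteoglycan of brain matrix, stood at 175 FPKM and CPLX4, the complexin of retinal ribbon synapses, at 88.9 FPKM in refractory, both at 0 in sensitive. SCG3, a secretogranin of dense-core granules, was at 92.9 FPKM in refractory against 4.21 FPKM in sensitive. That sensitive value lay under the sensitive floor of 20.8 FPKM and rested on 13.2% of the exon bases. In all, 5 of the 6 members of this list were higher and 0 lower, against 25% and 23.1% over all members. Of the 6, 4 were listed at 0 in sensitive and so could not be counted as lower. CPE, a hormone-processing carboxypeptidase of endocrine and neural cells, was at 140.6 against 76.0 FPKM and stayed within 1.

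Among genes of axon growth and neuronal differentiation, 8 of 9 members were higher in refractory and 1 was lower. Over all members the shares were 25% and 23.1%. Of the 9, 4 were listed at 0 in sensitive and so could not be counted as lower. The median difference of the 9 members was 3.48. BASP1, a growth-cone membrane protein encoded here by 1 exon, was at 879.8 FPKM in refractory against 13.9 FPKM in sensitive, a difference of 5.88. UCHL1, an abundant neuronal ubiquitin hydrolase that spermatogonia also express, was at 170.9 against 14.4 FPKM, and the membrane glycoprotein GPM6B at 197 against 3.24 FPKM. ENO2, the neuronal enolase, was at 269 against 1.84 FPKM, with 42.9% of its exon bases covered in refractory and 5.41% in sensitive. These 4 genes were covered in both libraries, but their sensitive values lay under the sensitive floor of 20.8 FPKM. Under their own names UCHL1 and GPM6B were at 0 in sensitive only, while ENO2 was at 0 in both libraries and so showed no difference. TAGLN3, an actin-binding protein of neurons, was at 387 FPKM, the RNA-binding protein ELAVL4 at 140.4 FPKM and the stathmin STMN2 at 102 FPKM in refractory, all listed at 0 in sensitive. The exception was CADM2, an adhesion molecule, at 22.6 FPKM in refractory against 105 FPKM in sensitive.

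Calcium-binding proteins that mark subsets of neurons were higher in 4 of 5 members, against 25% over all members. Of the 5, 4 were listed at 0 in sensitive and so could not be counted as lower. CALB2, calretinin, stood at 341 FPKM in refractory and CALB1, calbindin, at 59.8 FPKM, both at 0 in sensitive. NCS1, a calcium sensor of synapses, was at 52.8 FPKM and HPCA, hippocalcin, at 31.6 FPKM in refractory, also at 0 in sensitive, and HPCA was too close over the floor for a call. PCP4, a calmodulin regulator, was covered at 1108 FPKM in refractory against 51.3 FPKM in sensitive over only 129 exon bases. Under its own name PCP4 had a difference of -3.36, lower in refractory.

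Further genes among those with the highest differences belonged to no neuronal list. PHYHIPL, a relative of a peroxisomal interaction partner, was at 139 FPKM in refractory against 0.983 FPKM in sensitive, and DIRAS2, a small GTPase of brain, at 405 against 5.82 FPKM. MAB21L1, a gene of eye development, was at 65.3 against 0.392 FPKM, and PLS1, an actin-bundling protein of microvilli and stereocilia, at 137 against 1.77 FPKM. In all 4 the sensitive value lay under the sensitive floor.

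**Figure D2:**
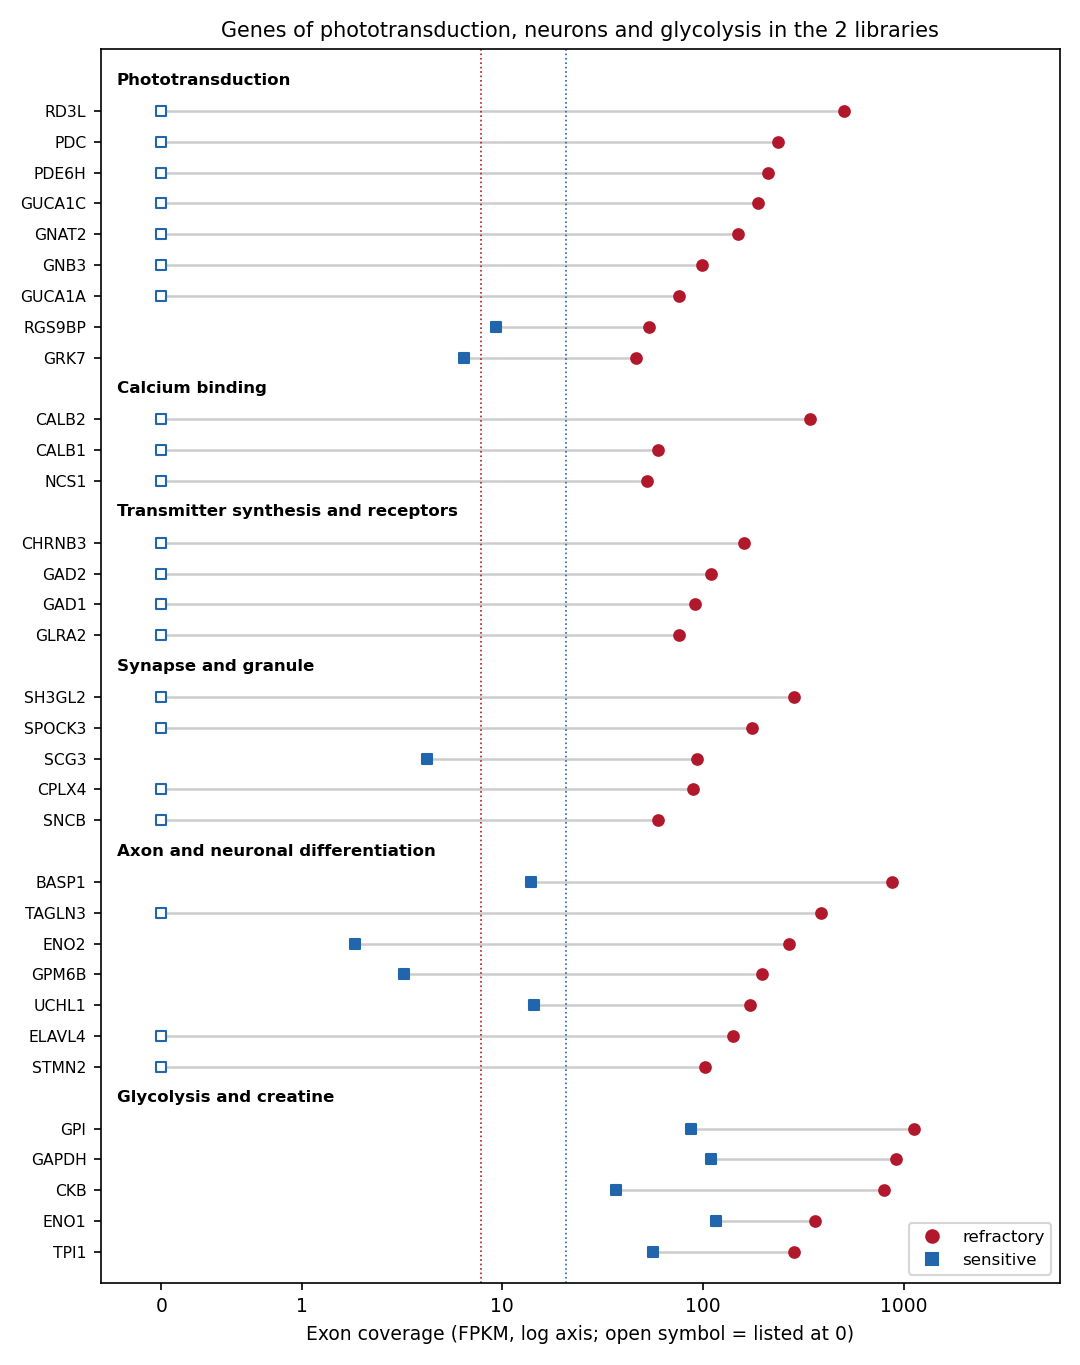
Exon coverage in the refractory library (red circles) and the sensitive library (blue squares) for members of 6 groups, in FPKM on a log axis, with open symbols for genes listed at 0. Dotted lines mark the floors of 7.86 FPKM (refractory, red) and 20.8 FPKM (sensitive, blue). The genes drawn were picked from members higher in refractory, so every red circle lies to the right of its blue square. The red circles run from 46.3 FPKM for GRK7 to 1121 FPKM for GPI. Members of these groups that were lower, such as CADM2, or within 1, such as PDE6D and CPE, are not drawn.

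Further lists, of cell-surface and signalling proteins, were written after the values were seen. Of 21 neuronal adhesion and guidance proteins 15 were higher in refractory and 2 lower, against 25% and 23.1% over all members. With values under a floor raised to it, 10 were higher. Of the 21, 7 were listed at 0 in sensitive and so could not be counted as lower. OLFM1, a secreted olfactomedin of neurons, was at 197 FPKM in refractory against 8.79 FPKM in sensitive, and TMEFF2, a transmembrane protein of brain, at 254 against 34.2 FPKM. SLITRK2, which organises synapses, was at 62.0 against 2.46 FPKM. The sensitive values of OLFM1 and SLITRK2 lay under the sensitive floor of 20.8 FPKM. LRRTM3, another synaptic leucine-rich-repeat protein, was at 8.33 FPKM in refractory against 39.6 FPKM in sensitive, and was with CADM2 the other lower member.

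Among 11 members encoding G-protein subunits, phosducin and RGS proteins, 8 were higher and 1 lower in refractory. Over all members the shares were 25% and 23.1%. Of the 11, 6 were listed at 0 in sensitive and so could not be counted as lower. Of the 8 higher ones, 5 were already counted among the phototransduction genes, namely PDC, GNAT2, GNB1, GNB3 and RGS9BP. GNG13, a gamma subunit of taste cells and retinal ON bipolar cells, was at 274 FPKM in refractory, and GNAO1, the abundant alpha subunit of neurons, at 80.7 FPKM, both at 0 in sensitive. RGS7, which speeds GNAO1 back to its inactive state, was at 94.2 FPKM in refractory and 0 in sensitive. GNAI3, a widely expressed inhibitory alpha subunit, was the lower member, at 36.2 FPKM in refractory against 84.4 FPKM in sensitive. Its relative GNAI1 was at 147 against 87.7 FPKM and stayed within 1.

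Ion channels showed both directions. KCNA2, a potassium channel of axons, was at 52.0 FPKM in refractory against 2.05 FPKM in sensitive, the latter under the sensitive floor of 20.8 FPKM. GJD2, the gap-junction protein of electrical synapses, stood at 70.0 FPKM and CACNG2, an AMPA receptor partner, at 62.6 FPKM in refractory, both at 0 in sensitive. KCNMB1, the potassium channel subunit of smooth muscle, was listed at 0 in refractory and stood at 195 FPKM in sensitive.

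Glycolysis and creatine genes were higher in the refractory library, in all 6 members of that list, against 25% over all members. Their median difference was 3.36. They include ENO2, already counted among genes of axon growth and neuronal differentiation, which had the list's highest difference at 6.57. GPI, which interconverts glucose and fructose phosphates, was at 1121 FPKM in refractory against 87.4 FPKM in sensitive. CKB, the brain-type creatine kinase, was at 795 against 37.0 FPKM, TPI1, triosephosphate isomerase, at 284 against 56.1 FPKM and ENO1, the widespread enolase, at 362 against 116 FPKM. GAPDH, a central glycolytic enzyme often used as a control gene, was at 918 against 109.6 FPKM. Its value rested on 19.5% of the exon bases in refractory and 100% in sensitive, and under its own name, which no refractory transcript carried, its difference was -3.64. SLC16A1, a carrier of lactate and pyruvate, was at 235 FPKM in refractory against 15.2 FPKM in sensitive. That sensitive value lay under the sensitive floor of 20.8 FPKM and rested on 22.4% of the exon bases.

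Pumps were on the same side. The proton pump subunits ATP6V1C1 and ATP6V1D were at 297 and 177 FPKM in refractory against 72.0 and 47.5 FPKM in sensitive, and the calcium pump ATP2B1 at 171 against 32.4 FPKM. Of the 10 members among solute carriers and pumps, 8 were higher in refractory and 1 was lower, against 25% and 23.1% over all members. The lower one was SLC29A1, a nucleoside transporter, at 9.27 FPKM in refractory against 54.7 FPKM in sensitive. In nuclear genes of mitochondrial respiration 6 of 9 members lay within 1, against 461 of 888 members in all. Of the rest of this list, VDAC1, the channel of the outer mitochondrial membrane, was higher at 243 FPKM in refractory against 44.0 FPKM in sensitive. ATPIF1, an inhibitor of ATP synthase, was at 57.4 FPKM in refractory and 0 in sensitive. SLC25A6, an ATP and ADP carrier, was lower at 242 against 516.5 FPKM.

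Clock-related genes were represented by 3 members, of which 2 were higher, against 25% over all members. NFIL3, a repressor of clock output, was at 195 FPKM in refractory against 39.7 FPKM in sensitive, a difference of 2.26. NR1D2, a nuclear receptor of the clock's stabilising loop, was at 74.3 against 21.6 FPKM. Its sensitive value rested on 10.6% of the exon bases, with no transcript of its name. The output activator TEF was at 32.7 FPKM in refractory and 0 in sensitive, too close over the floor for a call. HLF, a relative of TEF, was at 21.4 FPKM in refractory and 0 in sensitive. THRB, the thyroid hormone receptor beta, was the only gene with a value among 21 genes of the seasonal thyroid and reproductive axis. It stood at 14.8 FPKM in refractory and 0 in sensitive, where that level lies under the floor.

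The members among transcription factors of trunk and gonadal mesoderm were lower in refractory. Of 60 genes on this list 9 had a value and 6 were members. All 6 members were lower, against 23.1% over all members, with a median difference of -2.44. NR2F2, a nuclear receptor of stromal and Leydig-lineage cells, was at 51.0 FPKM in refractory against 308 FPKM in sensitive, a difference of -2.57. Its gene model spans 4625596 to 4635281 of scaffold JH603210.1 (FicAlb_1.4, minus strand). LHX9, which acts in the early gonad, was at 12.8 against 37.4 FPKM, and no transcript carried its name in either library. SNAI2, a driver of mesenchymal character, stood at 109 FPKM in sensitive, HAND2 at 51.8 FPKM, OSR1, of intermediate mesoderm, at 42.8 FPKM and HOXA7, a trunk patterning gene, at 25.8 FPKM. These 4 genes were listed at 0 in refractory. Their sensitive levels stood far enough over its floor of 7.86 FPKM that their call as lower was fixed. HOXA5 at 18.8 FPKM, TCF21 at 9.65 FPKM and HOXD8 at 7.06 FPKM in sensitive, likewise at 0 in refractory, lay under the entry level of 25 FPKM. MEIS1, a developmental factor on the list of neural regulators, was at 86.8 against 100.5 FPKM and stayed within 1. In bulk RNA, fewer cells of a type and less RNA per cell cannot be told apart.

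The list of secreted plasma and liver proteins and the list of extracellular matrix and adhesion had 2 members each, and all 4 were lower in refractory. The 2 of the plasma and liver list were listed at 0 in refractory, which fixed their call. Secreted proteins of the neuronal lists, such as SPOCK3 and OLFM1 above, were higher. AHSG, the plasma protein fetuin-A, was listed at 0 in refractory and stood at 527 FPKM in sensitive, and COLEC10, a secreted collectin, at 0 and 54.2 FPKM. SERPINE2, an inhibitor of extracellular proteases, was at 7.56 FPKM in refractory against 378 FPKM in sensitive, a difference of -5.47. That refractory value lay under the refractory floor of 7.86 FPKM, and transcripts under the gene's own name held 63.8 FPKM in sensitive. The sequence of SERPINE2 lies on the minus strand of scaffold JH603178.1 from 1953237 to 1965335. It was covered over 48.7% of its exon bases in refractory and 100% in sensitive. SOD3, the extracellular superoxide dismutase, was at 13.6 against 139 FPKM.

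Lipid-handling genes were mixed, with 2 of 9 members higher and 5 lower in refractory, against 25% and 23.1% over all members. Of the 9, 3 were listed at 0 in sensitive and could not be counted as lower. Another 2 were listed at 0 in refractory, which fixed their call as lower. The relatives FABP4 and FABP5 were among these, so FABP4 could only be called lower and FABP5 could not be. FABP4, the fatty-acid carrier of fat cells and capillary endothelium, was at 0 FPKM in refractory and 538 FPKM in sensitive, while FABP5, a carrier of skin and nervous tissue, was at 114 FPKM in refractory and 0 in sensitive. ACBD7, of the acyl-CoA binding family, was at 797 FPKM in refractory and 0 in sensitive. NPC2, which carries cholesterol out of lysosomes, was listed at 0 in refractory and at 54.4 FPKM in sensitive. ELOVL5, a fatty-acid elongase, was at 12.1 against 66.6 FPKM. TSPO, a mitochondrial cholesterol-binding protein of steroid-making cells, was at 2.22 FPKM in refractory against 28.3 FPKM in sensitive. The refractory value lay under the refractory floor of 7.86 FPKM and rested on 18.8% of the exon bases.

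Most of the other testis genes with a value stood under 25 FPKM in both libraries. INHA, the inhibin alpha subunit, was at 0 in refractory and 3.81 FPKM in sensitive, and INHBA, the beta subunit, at 2.89 FPKM in refractory and 0 in sensitive, all under the floors. The gap-junction gene GJA1 was at 1.11 against 10.1 FPKM, GFRA1, a receptor of spermatogonial stem cells, at 2.65 against 7.60 FPKM and MEIG1, a sperm assembly gene, at 5.74 against 3.45 FPKM. TDRD6, a germ-cell granule protein, was at 0 in refractory and 1.82 FPKM in sensitive. HSPA2, a heat-shock protein abundant in spermatocytes and present elsewhere, stood above 25 FPKM in both, at 47.7 FPKM in refractory against 28.2 FPKM in sensitive, within 1.

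Of 11 actin and contractile genes 6 were lower in refractory and 1 was higher, against 23.1% and 25% over all members. ACTB, cytoplasmic actin, was at 410.4 FPKM in refractory against 1265 FPKM in sensitive, although its exons overlap another gene's. TMSB4X, which sequesters actin monomers, was at 396 against 1374 FPKM, and CNN3, a calponin of non-muscle cells, at 61.3 against 787 FPKM. TPM4, a tropomyosin, was at 4.68 against 79.2 FPKM, its refractory value under the refractory floor of 7.86 FPKM. PFN2, the neuronal profilin, was the higher member, at 262 against 85.1 FPKM.

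Genes of protein synthesis were lower in the refractory library. Of 25 members encoding ribosomal proteins 20 were lower and 0 higher, with a median difference of -1.64, while 23.1% of all members were lower. RPL37 was at 536 FPKM in refractory against 1622 FPKM in sensitive, RPL34 at 158 against 935 FPKM and RPL30 at 45.7 against 459 FPKM. RPL27A was listed at 0 in refractory and at 119 FPKM in sensitive. RPL5, at 283 against 485 FPKM, was 1 of the 5 members within 1. Processed copies of such genes can share reads, so single members are uncertain.

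Of 12 translation factors 7 were lower in refractory and 0 were higher, while 23.1% of all members were lower. EEF1B2, an exchange factor of elongation, was the most abundant gene with a symbol in sensitive, at 975 FPKM in refractory against 3378 FPKM in sensitive. TPT1, the translationally controlled tumour protein, was at 798 against 1889 FPKM, and EIF3E, a subunit of an initiation complex, at 53.5 against 231 FPKM. PABPC1, which coats poly(A) tails, was at 230 against 525 FPKM, but under its own name, which no sensitive transcript carried, its difference was 3.41. EIF4A2, the initiation helicase, was at 1363 against 1836 FPKM and EIF1 at 503 against 393 FPKM, both within 1.

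A list of endoplasmic reticulum entry, folding and exit genes, written after the values were seen, had 20 members. Among them 14 were lower and 0 higher in refractory, against 23.1% and 25% over all members. ERP29, a folding factor of the secretory pathway, was at 272 FPKM in refractory against 761 FPKM in sensitive, and ERP44, which retains folding enzymes, at 51.1 against 166 FPKM. PDIA6, a disulphide isomerase, was at 78.6 against 396 FPKM, while under its own name, absent in sensitive, its difference was 1.87. TMED2, a cargo receptor of transport vesicles, was at 78.3 against 242 FPKM, and SSR3, of the translocon-associated complex, at 39.7 against 111 FPKM. Among chaperones and redox enzymes 5 of 14 members were lower, against 23.1% of all members. The 5 include PRDX4, the peroxiredoxin of the endoplasmic reticulum, at 87.3 against 372 FPKM. The cytosolic chaperone HSP90AA1, at 698 against 630 FPKM, and the cytosolic PRDX1, at 366 against 547 FPKM, stayed within 1.

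**Figure D3:**
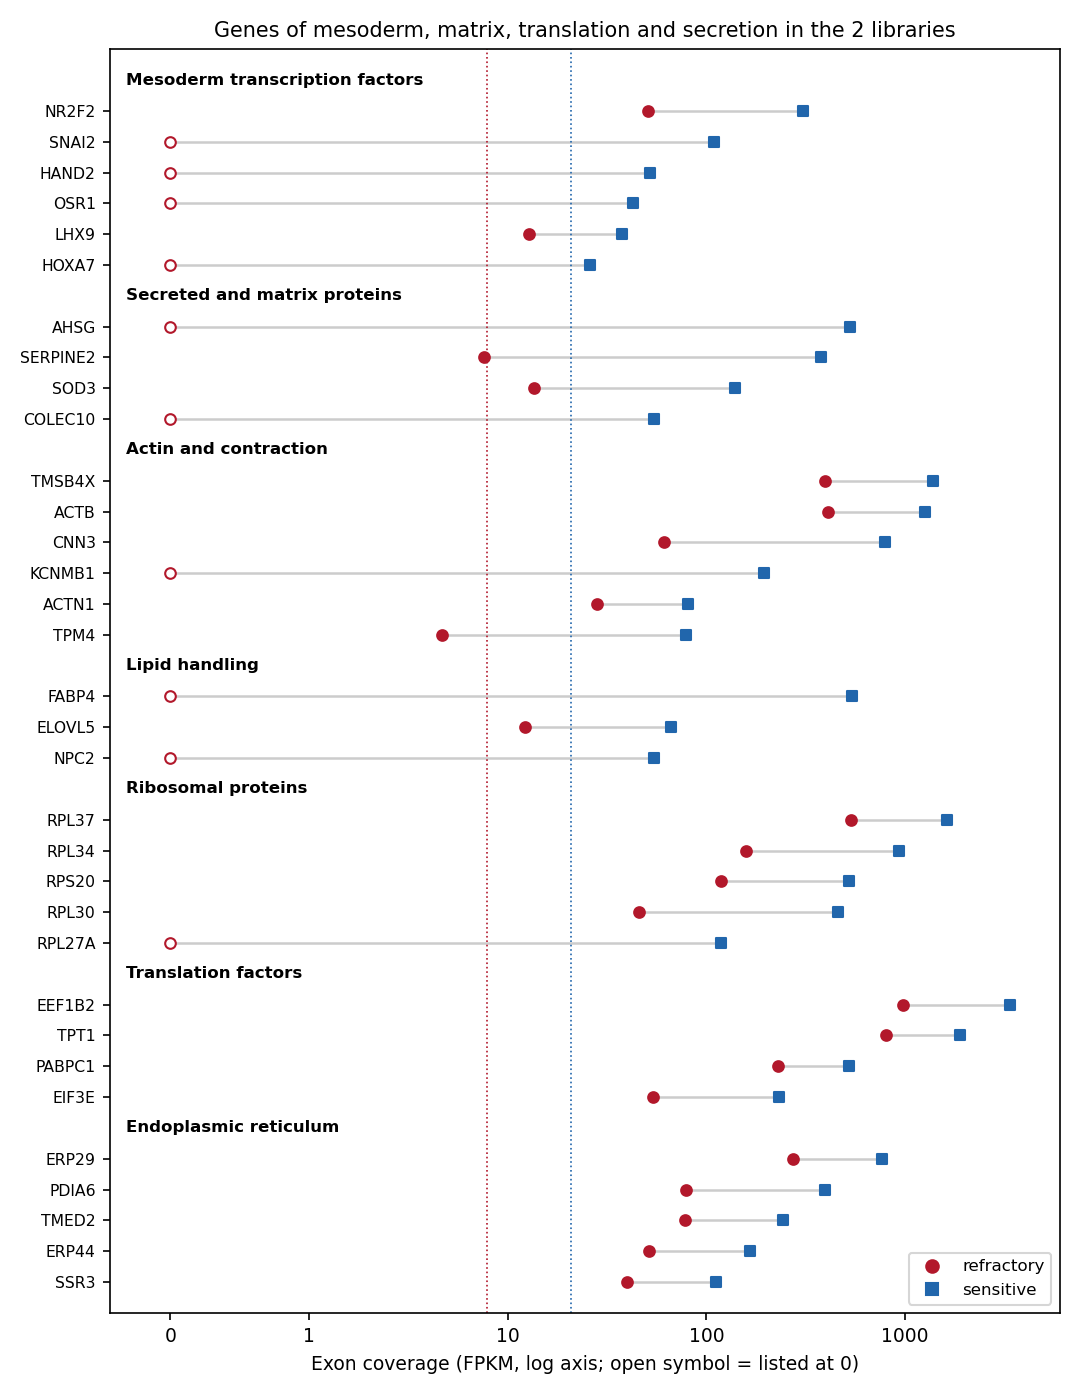
Exon coverage in the refractory library (red circles) and the sensitive library (blue squares) for members of 7 groups, in FPKM on a log axis, with open symbols for genes listed at 0 and dotted lines at the floors of 7.86 FPKM (refractory, red) and 20.8 FPKM (sensitive, blue). The genes drawn were picked from members lower in refractory, so every red circle lies to the left of its blue square. Members of these groups that were higher, such as PFN2, ACBD7 and FABP5, or within 1, such as RPL5 and EIF4A2, are not drawn.

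Protein genes of mitochondrial DNA were uneven. Of 6 members 4 were lower in refractory and 0 higher, against 23.1% and 25% over all members. COX1, a subunit of cytochrome oxidase, was at 4.92 FPKM in refractory against 146 FPKM in sensitive, and CYTB, of complex III, at 0.402 against 55.6 FPKM. Both refractory values lay under the refractory floor of 7.86 FPKM, and the exon of COX1 overlaps another gene's. The other lower members were ND2, listed at 0 in refractory, and ATP8, a gene of 168 exon bases whose exon overlaps another gene's. ND4, of complex I, was at 81.9 FPKM in refractory against 43.0 FPKM in sensitive and within 1. Mitochondrial genes are transcribed together, and their order by level was not the same in the libraries.

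Other basic functions mostly lay within 1 between the refractory and the sensitive library. Splicing factors and RNA helicases lay within 1 in 17 of 21 members, against 461 of 888 members in all, and the proteasome and ubiquitin list in 12 of 13. DDX5, an RNA helicase, was at 644 FPKM in refractory against 666 FPKM in sensitive, and SRSF5, a splicing factor, at 339 against 334 FPKM. UBE2A, a ubiquitin-conjugating enzyme, at 168.0 against 168.1 FPKM, had the smallest difference among the 110 genes at 100 FPKM or more in both libraries. CLK4, a kinase of splicing factors, at 243 against 244 FPKM, PTGES3, a co-chaperone, at 182 against 181 FPKM and HDLBP, an RNA-binding protein, at 173 against 174 FPKM came next. HNRNPDL, an RNA-binding protein, was at 1113 against 292 FPKM, but at -3.03 under its own name.

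**Figure D4:**
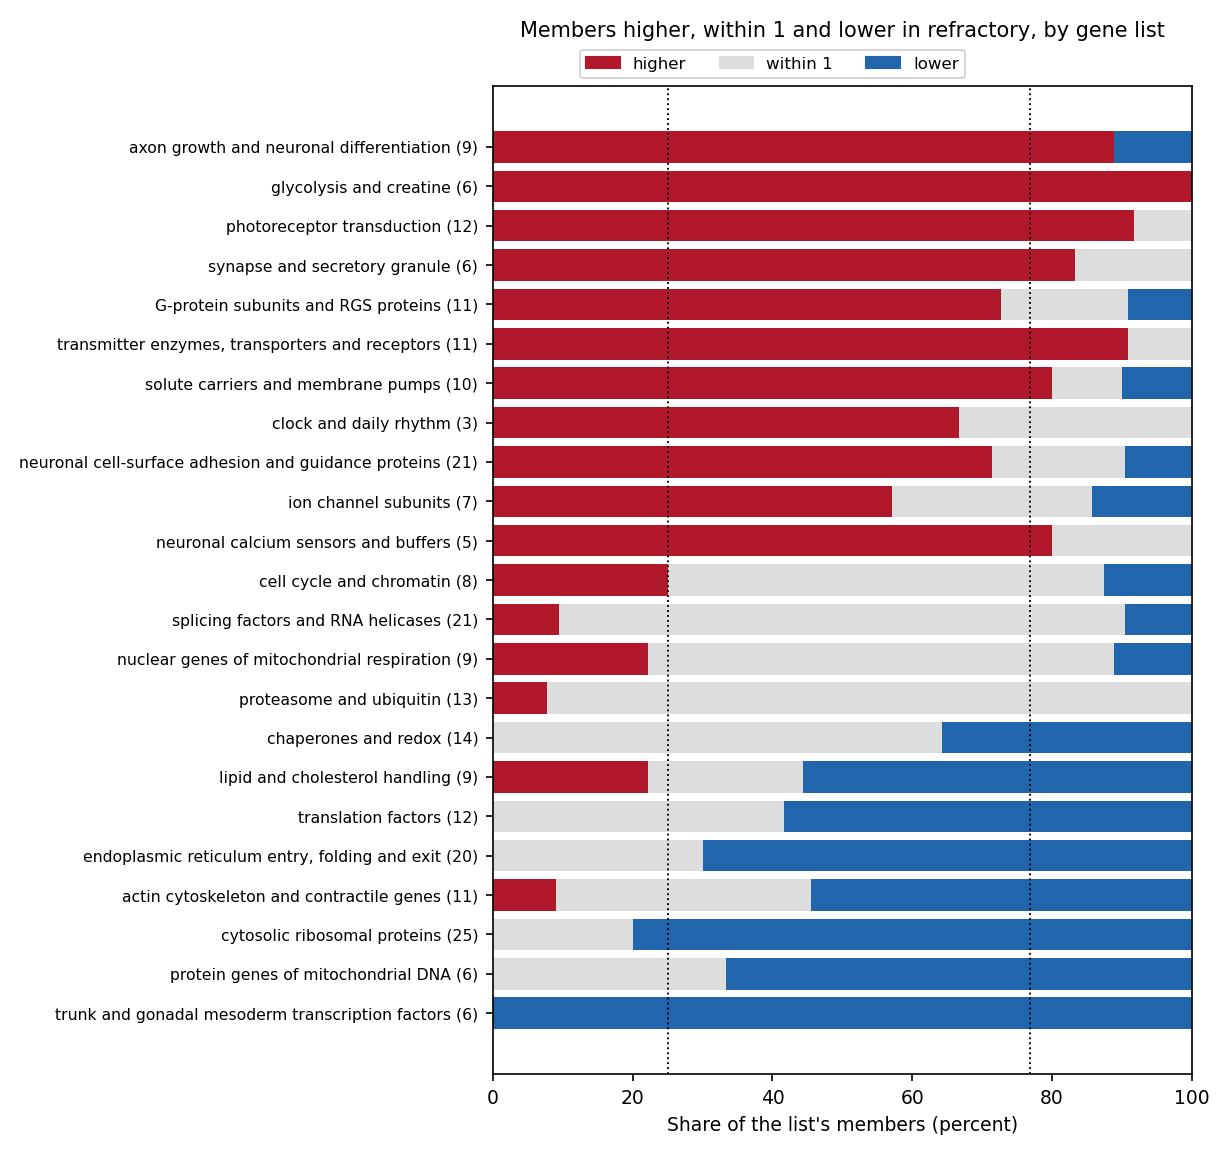
Share of each list's members (percent; number of members in brackets) that were higher (red), within 1 (grey) or lower (blue) in the refractory library than in the sensitive library, for lists with at least 3 members. Dotted lines mark the shares over all 888 members, 25% higher (from the left edge) and 23.1% lower (from the right edge). Neuronal, phototransduction and glycolytic lists lie at the top, and mesodermal, mitochondrial DNA and ribosomal lists at the bottom.

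The early and late stimulated libraries were set beside these levels, in the seasonal order of the labels. From sensitive through early and late stimulated to refractory, the levels of PDC were 0, 200.4, 79.0 and 237 FPKM. GNAT2 was at 0, 101, 59.8 and 149.8 FPKM and ENO2 at 1.84, 140.0, 75.4 and 269 FPKM in the same order. In these genes the refractory library held the highest level and the late stimulated library the lowest of the 3 libraries that were not sensitive. SCG3 had another order, at 4.21, 272, 294 and 92.9 FPKM, as did UCHL1 at 14.4, 206, 365 and 170.9 FPKM. BASP1 was at 13.9, 351, 540.2 and 879.8 FPKM, with its highest level in refractory.

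Named genes counted as lower in refractory than in sensitive were also below the sensitive level in both stimulated libraries. Being called lower favours a high level in the shared sensitive library, so this is no separate observation. In that same order, NR2F2 was at 308, 46.2, 52.4 and 51.0 FPKM and CNN3 at 787, 85.3, 73.1 and 61.3 FPKM. SNAI2, FABP4 and AHSG were listed at 0 in each library but sensitive. RPL37 was at 1622, 337, 147 and 536 FPKM, where refractory came closest to sensitive. These side-by-side levels share the sensitive library and are given as a description.

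**Figure D5:**
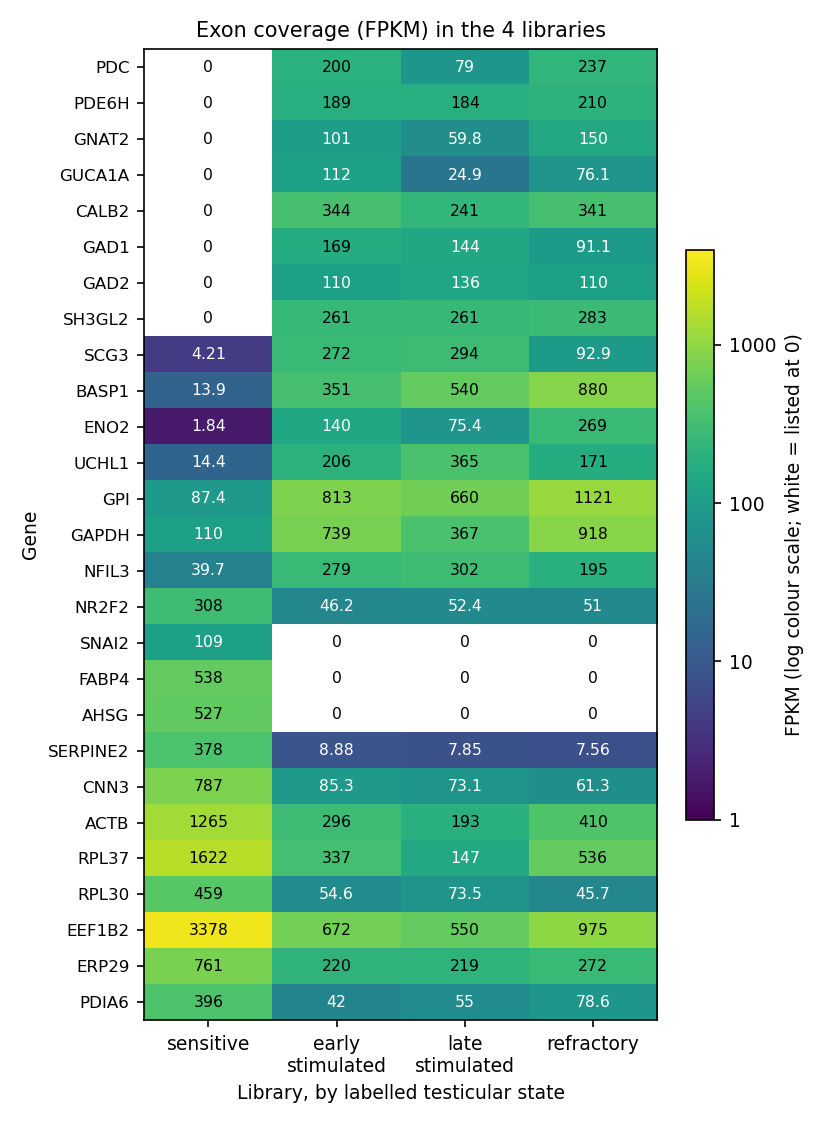
Exon coverage in FPKM of 27 genes (rows) in the 4 libraries (columns, from sensitive to refractory), with colour on a log scale and white cells for genes listed at 0. The genes were picked from members called higher or lower in refractory. The sensitive column stands apart from the other 3 in most rows, as for CALB2 at 0, 344, 241 and 341 FPKM.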

How the data were processed

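Total RNA was extracted with Tri reagent from tissue ground under liquid nitrogen, per the labels' protocols. The submitters' processing notes name Trimmomatic, while any aligner was not given in the sources used here. Per the file headers, StringTie 1.3.3b assembled each library separately, with Ensembl 89 gene models of another songbird, the collared flycatcher (FicAlb_1.4), as the guide. The header of the sensitive library abbreviates it differently from its title. The deposited values are FPKM, TPM and coverage per transcript and coverage per exon, with no counts, so no count-based interval can be given.

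For each gene, exons were pooled from its reference-matched transcripts across the 4 files. Coverage by every same-strand or unstranded transcript was averaged over these bases and scaled to FPKM with the coverage that 1 FPKM equals in that library. No strand setting stands in the headers, so overlapping antisense genes cannot be told apart. The exons of 17 members overlap another gene's. The code (Python 3.11.15, numpy 2.4.6, pandas 2.3.3) was tested on the refractory data with known fold changes put in. That test covered the exon levels, not the floor rule or the calls.

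Members and lists were chosen with earlier results of these data known, and 4 of 33 lists were written after the values were seen. Named genes were the 15 with the highest and the 15 with the lowest differences, up to 6 members per list, covered testis and clock genes, genes at the entry level and those with the smallest differences. Further genes were named after their values were seen, and some picked by the rule are not reported here. In all, 13 alternative settings were tried, 2 of them chosen after seeing the data.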

Additional observations from a re-analysis of the deposited data

How the results depend on the processing

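No paired analysis was possible because each state has 1 library, and for the same reason no library could be left out. Against 222 genes higher and 205 lower in refractory, a difference of 2 instead of 1 gave 111 higher and 95 lower. An entry level of 50 FPKM gave 180 higher and 136 lower, and one of 1 FPKM gave 312 higher and 329 lower. Under the other settings both counts stayed within 1.5 times, between 189 and 261 higher and between 176 and 224 lower. Median-of-ratios scaling moved differences by a median of 0.15. With values under the genes' own names, 346 of the 427 called genes reached 25 FPKM, of which 320 kept their call and 11 had the opposite one. The named genes that reversed there were ATP1B3 at -3.70, GAPDH at -3.64, PCP4 at -3.36, HNRNPDL at -3.03, PABPC1 at 3.41, PDIA6 at 1.87 and EMC3 at 1.37. A gene then drops to the floor where no transcript carries its name. Of 23 list medians, 10 moved by over 1.5 times with uncovered genes at 0, 6 at the entry level of 1 FPKM and 5 under own names. No median of 1 or more in size changed sign, but those of splicing factors and nuclear mitochondrial genes, near 0, did under some settings. The sensitive floor of 20.8 FPKM, against 7.86 FPKM in refractory, limits what can be called higher in refractory more than what can be called lower.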

Other observations

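Regulators outside the lists above, chosen after their values were seen, also parted between the libraries. FGF12 and FGF9, of the fibroblast growth factor family, stood at 117 and 58.7 FPKM in refractory and were listed at 0 in sensitive. The nucleotide receptor P2RY1 was at 80.5 FPKM in refractory against 8.42 FPKM in sensitive, the latter under the sensitive floor of 20.8 FPKM. The zinc-finger repressor ZEB2 was at 162 against 58.0 FPKM. Lower in refractory were TSHZ3, a zinc-finger factor of smooth-muscle development, at 17.0 against 95.8 FPKM, GUCY1A3, a subunit of the nitric oxide receptor, at 23.2 against 113 FPKM, MSN, which links actin to the membrane, at 14.6 against 127 FPKM, and CCND2, a G1 cyclin, at 0 against 47.2 FPKM.

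Of the 167 members with a reference identifier and no symbol, 45 were higher and 45 lower in refractory. These shares lie near those over all 888 members, 25% higher and 23.1% lower. The extremes among all members were very short genes of this kind. ENSFALG00000015904, with 66 exon bases, was at 1501 FPKM in refractory against 1.67 FPKM in sensitive, and ENSFALG00000015546, with 51 exon bases, was at 0.00582 against 10346 FPKM. Exon length and the difference were only weakly related over the 888 members (Spearman's rho 0.05, given as a description). The shortest of 5 length groups, at 51 to 729 exon bases, had a median difference of -0.18 and the longest one of 0.15.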
